A study of Mus musculus with 95 samples.

Results

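Steroid hormones reach the brain from the blood and are also made and changed there. The 9 genes described here encode proteins that deliver cholesterol to mitochondria (Star, Tspo), start steroid synthesis (Cyp11a1), reduce progesterone and its products (Srd5a1, Akr1c14, Akr1c18), regenerate active glucocorticoid (Hsd11b1), hydroxylate oxysterols and neurosteroids (Cyp7b1) or make oestrogen from androgen (Cyp19a1). They were taken by gene name from a list of steroid-metabolising genes, 9 of the 54532 genes in the deposited count table, and all 9 were found. Akr1c18 was put on the list because wild-type libraries had counts for it almost only in the hippocampus, so it was chosen by its wild-type counts in the 2 regions, and that difference is given as a description, with no test.

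The libraries came from 2 mouse lines on a C57BL/6 background that lack Fkbp5, the gene of FKBP51, in a class of neurons. The Cre recombinase of FKBP51-Nex-Cre mice (the Nex line) acts in glutamatergic neurons of the forebrain. That of FKBP51-Dlx-Cre mice (the Dlx line) acts in GABAergic neurons of the forebrain, so other cells keep the gene in either line. FKBP51 is a co-chaperone that lowers the sensitivity of the glucocorticoid receptor. Male and female knockout and wild-type mice of either line gave tissue from 2 places, dorsal hippocampus and BNST (bed nucleus of the stria terminalis), without any treatment, and the labels give no age. These 2 lines, 2 regions, 2 sexes and 2 genotypes make 16 groups of 6 libraries, except for 5 of Nex knockout males in the hippocampus. Libraries of Dlx females are called by their replicate number, and those of other groups are numbered from 1 in the order of theirs. The labels do not say whether the libraries of a group come from separate mice, so p-values measure the spread between these libraries. In both lines the replicate numbers of males and females form separate ranges. A difference between the sexes therefore cannot be told apart from one between separately numbered sets of libraries.

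Neurosteroid synthesis starts when cholesterol crosses into the mitochondrion and CYP11A1, the side-chain cleavage enzyme, turns it into pregnenolone. Steroid 5-alpha reductase and 3-alpha-hydroxysteroid dehydrogenase then convert progesterone, by way of dihydroprogesterone, into allopregnanolone, which increases the response of GABA-A receptors. The enzyme encoded by Hsd11b1 regenerates corticosterone, the main glucocorticoid of mice, inside cells, and aromatase, encoded by Cyp19a1, is known in the rodent bed nucleus for making oestradiol from testosterone.

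Libraries held between 19.6 and 31.2 M counts (median 22.4 M). Replicate 8 of the knockout female Dlx hippocampus stood apart, with counts for 17863 genes against 23552 to 26414 in the others, and log2 differences printed here that it moves by over 1.5 times are given with and without it. Fkbp5 was lower in knockouts than in wild types in the Nex hippocampus (log2 difference -0.99 in males, -1.07 in females) and in the Dlx BNST (-2.41 and -1.66), and these 4 passed edgeR's quasi-likelihood test at an adjusted p under 0.05, while the other 4 differences, between -0.09 and 0.17, did not. The 0.17 was that of Dlx hippocampus females with replicate 8 included. Averaged over the sexes, the Dlx hippocampus difference was 0.04 with replicate 8 and -0.04 without it. The region labels held in part by their markers. A list of 8 dentate gyrus genes summed to 291.9 to 1356 CPM (counts scaled to the size of the library) in hippocampus libraries against 133.2 to 217.4 in BNST libraries, and a list of 11 ventral forebrain genes to 317.9 to 841.7 against 1461 to 3024. The 317.9 was that of replicate 8, and the next lowest was 491.7. Summed striatal markers ran from 77.3 to 3957 CPM among BNST libraries and summed thalamic markers from 66.6 to 1279. Summed markers of CA1 pyramidal neurons, from 136.7 to 1680 CPM in the hippocampus and from 212.9 to 934.1 in the BNST, did not separate the regions. In bulk tissue, fewer cells of a type and less RNA per cell cannot be told apart.

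The promoter windows of 4 genes are shown. Akr1c18 had counts almost only in the hippocampus, Akr1c14 is its chromosomal neighbour, Hsd11b1 did not overlap between regions, and Cyp19a1 had most of its counts in the BNST. RefSeq promoters (GRCm38.p6, 250 bases before to 50 bases after the annotated start) were found for 6 of the 9 genes, not for Cyp7b1, Star and Tspo. Akr1c18 and Akr1c14 belong to the same aldo-keto reductase cluster on chromosome 13. The direction of Akr1c18 between regions is the one it was chosen for. Akr1c14 was lower in the hippocampus, called in 1 of 8 comparisons, and the regions overlapped in all 8. Hsd11b1 was higher in the hippocampus and Cyp19a1 in the BNST. Capitals mark matches, on either strand, to 6 motifs that were searched. The core of the glucocorticoid receptor element is spelled AGAACA here and that of the oestrogen receptor element AGGTCA, which also lies inside the site of steroidogenic factor, CAAGGTCA. The neuronal E-box was searched as CAGATG, the cyclic AMP response element as TGACGTCA and the core promoter box as TATAAA.
Akr1c18, chr13:4150597-4150896, minus strand: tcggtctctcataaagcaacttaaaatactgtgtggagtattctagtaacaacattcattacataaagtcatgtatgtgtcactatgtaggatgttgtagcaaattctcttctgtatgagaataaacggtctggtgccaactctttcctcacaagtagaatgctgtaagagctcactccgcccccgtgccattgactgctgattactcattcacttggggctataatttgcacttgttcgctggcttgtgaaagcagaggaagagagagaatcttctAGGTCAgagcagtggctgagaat
Akr1c14, chr13:4059341-4059640, plus strand: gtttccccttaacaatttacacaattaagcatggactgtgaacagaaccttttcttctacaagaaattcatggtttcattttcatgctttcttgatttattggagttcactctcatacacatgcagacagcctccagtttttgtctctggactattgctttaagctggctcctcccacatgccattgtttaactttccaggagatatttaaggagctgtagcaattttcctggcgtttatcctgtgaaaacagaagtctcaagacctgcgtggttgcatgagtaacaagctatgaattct
Hsd11b1, chr1:193242311-193242610, minus strand: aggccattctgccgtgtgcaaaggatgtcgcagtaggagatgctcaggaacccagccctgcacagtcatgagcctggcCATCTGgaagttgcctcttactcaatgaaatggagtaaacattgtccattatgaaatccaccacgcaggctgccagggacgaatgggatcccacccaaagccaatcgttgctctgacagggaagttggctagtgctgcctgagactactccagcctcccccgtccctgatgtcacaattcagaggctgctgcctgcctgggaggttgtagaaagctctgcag
Cyp19a1, chr9:54268115-54268414, minus strand, the first of 3 starts: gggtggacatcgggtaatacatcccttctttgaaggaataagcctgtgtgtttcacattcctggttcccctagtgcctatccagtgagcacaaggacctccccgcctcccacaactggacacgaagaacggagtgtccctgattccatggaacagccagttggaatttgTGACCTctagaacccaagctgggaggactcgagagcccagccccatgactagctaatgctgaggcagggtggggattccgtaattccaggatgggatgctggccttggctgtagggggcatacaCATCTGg

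The Akr1c18 window held AGGTCA 28 bases after the start, and the Cyp19a1 window held it on the opposite strand. CAGATG was found on the opposite strand in the Hsd11b1 and Cyp19a1 windows, and the Akr1c14 window held none of the 6. Among 32851 mouse promoters of the same length, 16.26% held AGGTCA, 17.15% CAGATG, 13.62% TATAAA, 18.97% AGAACA, 1.56% CAAGGTCA and 1.79% TGACGTCA. TATAAA was found at both other Cyp19a1 starts and AGGTCA at the second of 2 Cyp11a1 starts. These matches describe letters in a window and show no binding.

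Per kilobase of exon, the most abundant transcript in the hippocampus was Cyp7b1, at 10.7 CPM per kb averaged over the 8 groups, followed by Hsd11b1 at 6.23 and Tspo at 4.04. Star (group means 2.41 to 2.89) and Srd5a1 (2.15 to 2.82) overlapped, and so did Akr1c18 (0.708 to 2.28) and Cyp11a1 (0.787 to 1.32). Akr1c14 at 0.378 and Cyp19a1 at 0.0276 CPM per kb were the lowest. In the BNST the order was Cyp7b1 (4.17), Tspo (4.02), Star (2.83) and Srd5a1 (2.77), then Hsd11b1 (1.32), Akr1c14 (0.496), Cyp11a1 (0.379), Cyp19a1 (0.143) and Akr1c18 (0.0294). Cyp7b1 and Tspo were within the range of each other's group means there, as were Star and Srd5a1.

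**Figure D1:**
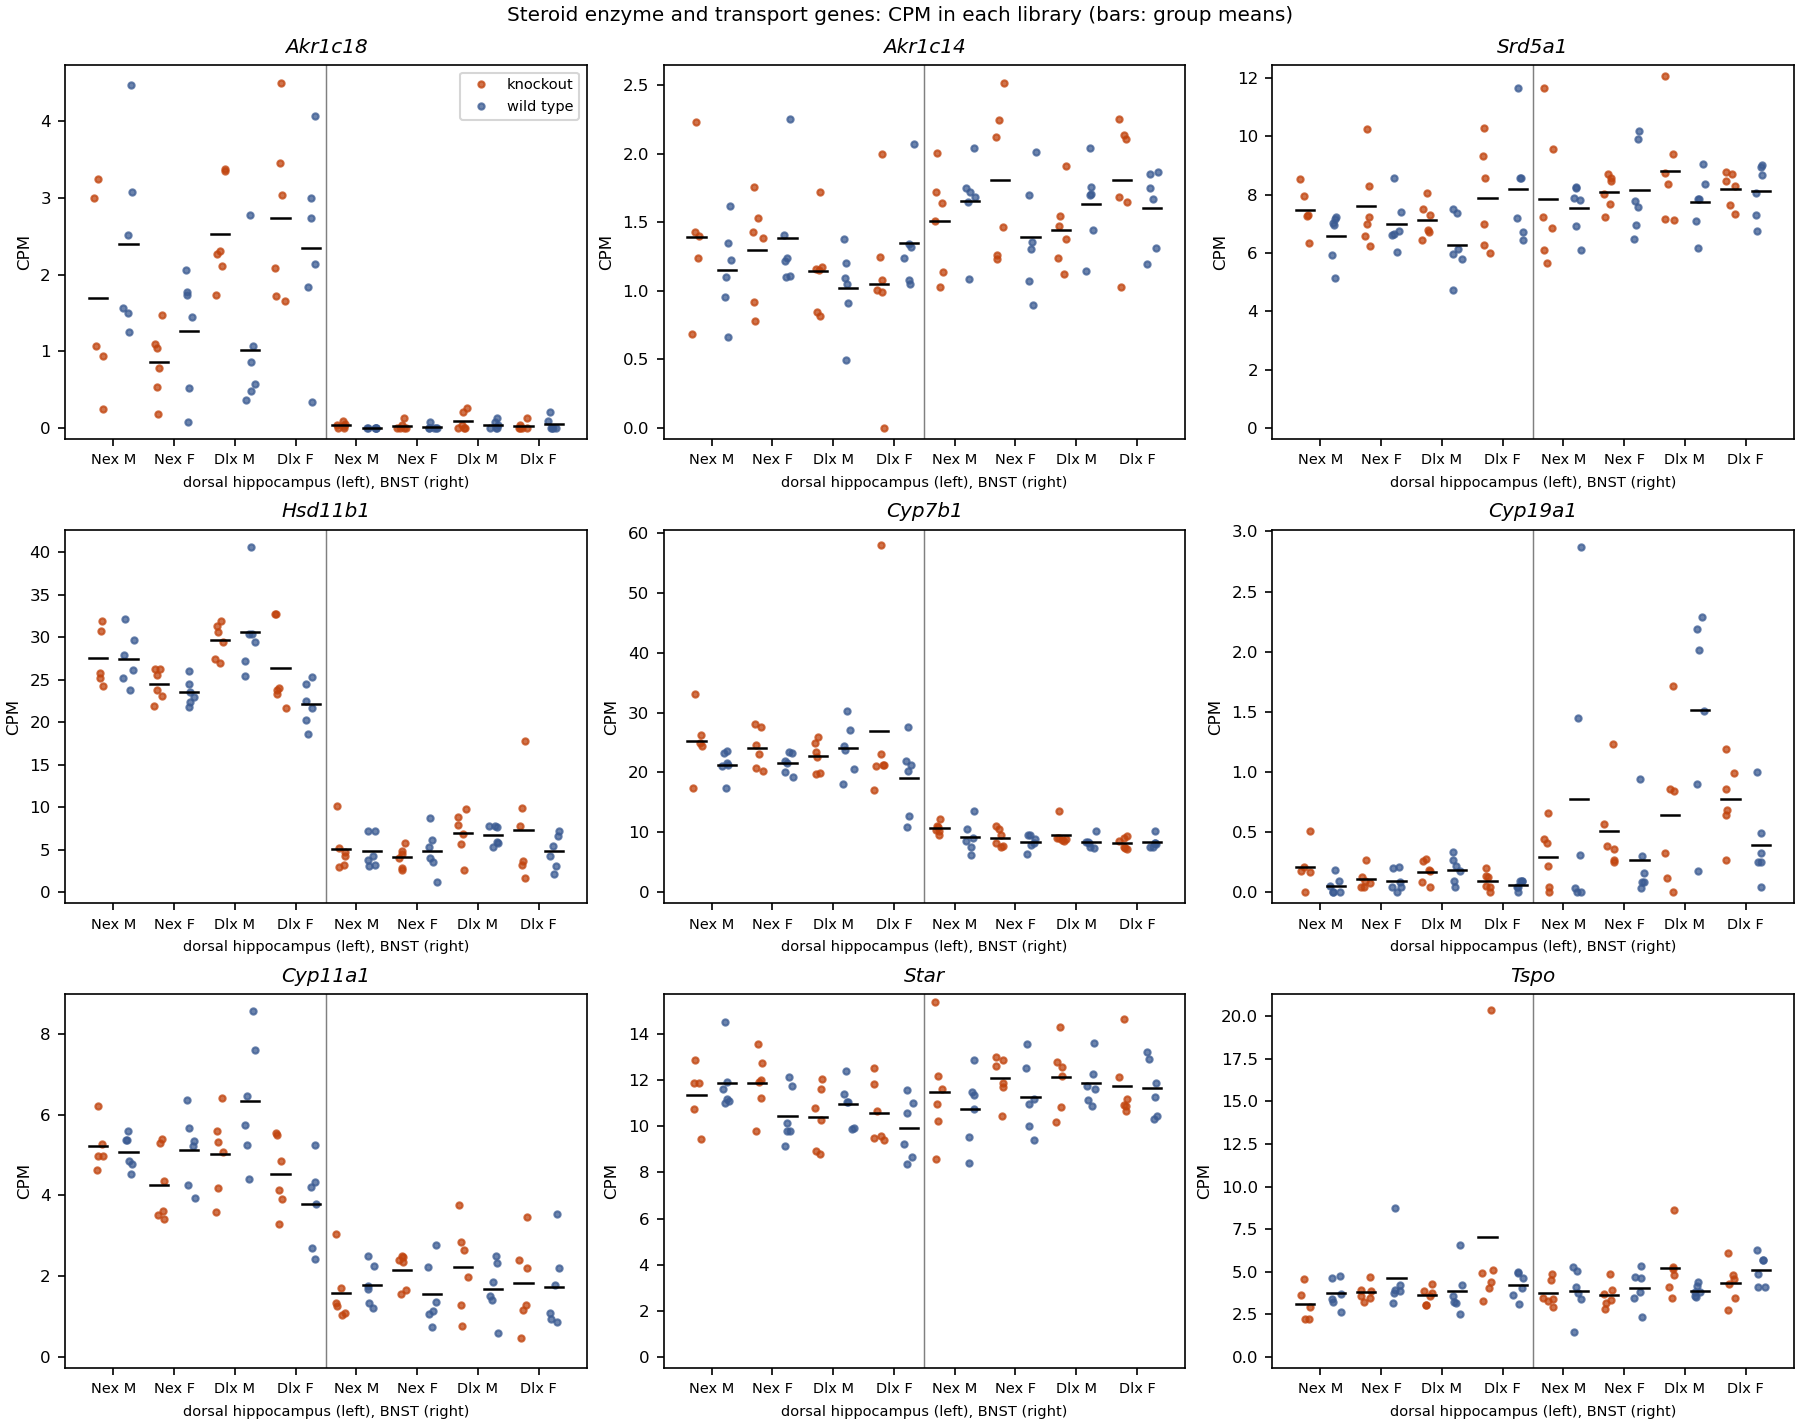
Normalised levels (CPM, vertical axes) of the 9 genes in each of the 95 libraries, by line (Nex, Dlx) and sex (M, F) with knockouts left of wild types, hippocampus groups left of the grey line and BNST groups right of it. Points are libraries and bars are group means. Akr1c18 lies near 0 in the BNST, Hsd11b1, Cyp7b1 and Cyp11a1 are higher in the hippocampus, and 1 knockout female Dlx hippocampus library has 57.9 CPM of Cyp7b1 and 20.3 CPM of Tspo.

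Akr1c18 (ENSMUSG00000021214, chromosome 13, 4132615 to 4150654, GRCm38) encodes the enzyme that inactivates progesterone by reducing its side chain. It was found in all 47 hippocampus libraries, at 2 to 94 counts and 0.0811 to 4.51 CPM (median 1.73). In the BNST it was at 0 in 31 of 48 libraries, and the highest of the others had 6 counts. In wild types, which chose the gene, 24 hippocampus libraries held 928 counts and 24 BNST libraries 15. Knockouts were not used in that choice, and there 23 hippocampus libraries held 995 counts and 24 BNST libraries 25. A library with 0 counts of Akr1c18 allows a level of up to 0.103 to 0.141 CPM, that of 3 counts at its depth, which covers counting error only.

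In knockouts every hippocampus library lay above every BNST library of the same line and sex, in all 4 pairs of groups. The gene was put on the list for this pattern and is near 0 in the BNST, so the levels are given without a test. The share of all genes without overlap was not counted.

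Within hippocampus groups Akr1c18 had a median coefficient of variation of 53.4%, below the 77.6% of the sparse Cyp19a1 and above those of the other 7 genes (11.3% for Hsd11b1 to 29.2% for Akr1c14). Over 46 hippocampus libraries (without replicate 8), after subtraction of group means, its log level went with the summed markers of CA1 pyramidal neurons (Pearson r = 0.89, Spearman rho = 0.86, r = 0.86 without the 2 farthest libraries). It was 0.91 in the 23 libraries of the Nex line and 0.88 in the 23 of the Dlx line, and the r with thalamic markers was -0.74. These values are a description over libraries that share one study and its counting, and the part of tissue composition in the level of Akr1c18 was not tested. The genes most like it over 94 libraries (all but replicate 8) were Htr5b (r = 0.84), a serotonin receptor gene, 9130024F11Rik (0.82) and Vxn (0.82).

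**Figure D2:**
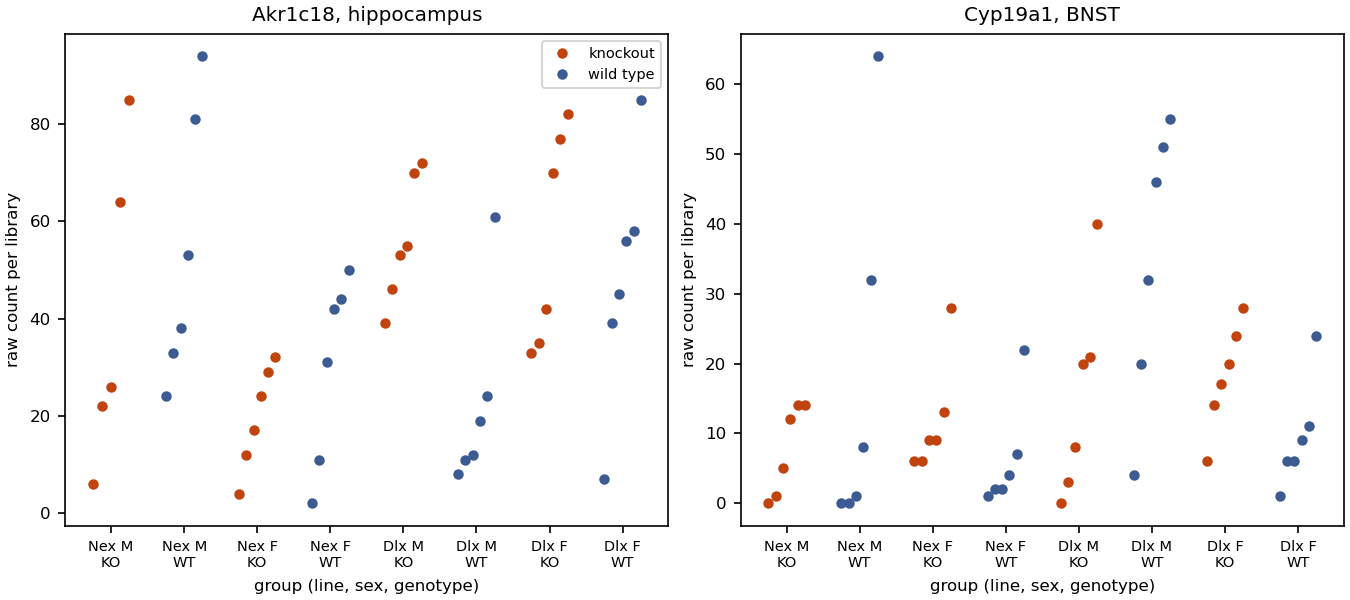
Raw counts per library (vertical axes) of Akr1c18 in the hippocampus and Cyp19a1 in the BNST, by line, sex and genotype, each point a library sorted within its group. Akr1c18 runs from 8 to 61 counts in Dlx wild-type males and from 39 to 72 in Dlx knockout males, and Cyp19a1 has between 0 and 64 counts over all BNST libraries.

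Between genotypes, Akr1c18 in the hippocampus of Dlx males had 1.74, 2.11, 2.28, 2.31, 3.35 and 3.38 CPM in knockouts, against 0.368, 0.481, 0.576, 0.859, 1.07 and 2.78 CPM in wild types. All wild-type libraries but the highest lay below every knockout library, and that library lay inside their range. The log2 difference of 1.30 (SE 0.46, unadjusted p = 0.00936, adjusted p = 0.999) did not pass edgeR's test, and without that wild-type library, library 2, it was 1.90. The 7 CA1 markers were all above 0 in the same comparison (median log2 difference 0.61, none called), with summed levels of 551.9 to 1459 CPM in knockouts against 221.3 to 1138 in wild types, and the 8 thalamic markers were all below 0 (median -1.18, none called). Their part in the result was not tested.

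In the other hippocampus groups the genotypes overlapped. Nex males had 0.251, 0.945, 1.07, 3.0 and 3.24 CPM in knockouts, against 1.25, 1.5, 1.57, 2.52, 3.08 and 4.47 in wild types (log2 difference -0.49). Nex females had 0.183, 0.540, 0.787, 1.05, 1.09 and 1.48 CPM in knockouts, against 0.0811, 0.523, 1.45, 1.73, 1.77 and 2.06 in wild types (-0.57). Dlx females averaged 2.75 ± 1.13 CPM in knockouts and 2.35 ± 1.26 CPM in wild types (SD, n = 6 each, 0.24). Replicate 8 was the highest of these knockouts at 4.51 CPM, and without it the knockouts averaged 2.39 ± 0.81 CPM (SD, n = 5), a log2 difference of 0.03. The 7 CA1 markers were all below 0 in the Nex comparisons (median log2 difference -0.51 in males and -0.24 in females, none called). Their median summed level was 474.9 CPM in knockout against 930.8 in wild-type males and 501.4 CPM in knockout against 663 in wild-type females, and their part in the result was not tested. The difference of the male genotype effects between the lines, -1.81 (unadjusted p = 0.0147), did not pass the test across all genes (adjusted p = 0.788).

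Akr1c14 (ENSMUSG00000033715, chromosome 13, 4049011 to 4090688) encodes the 3-alpha-hydroxysteroid dehydrogenase that makes allopregnanolone. Group means lay between 1.02 and 1.40 CPM in the hippocampus against 1.39 and 1.81 in the BNST. The hippocampus value was the lower in all 8 comparisons of regions, by log2 differences of -0.78 to -0.01, and the 2 regions overlapped in each. The -0.78 was that of Dlx knockout females, where hippocampus replicate 8 had 0 counts of Akr1c14, and without it the value was -0.53. The difference passed the test only in Dlx wild-type males (-0.67, adjusted p = 0.0132), where the level was 1.02 ± 0.30 CPM in the hippocampus and 1.63 ± 0.31 in the BNST (SD, n = 6 each). It did not pass without BNST library 3 (-0.55, adjusted p = 0.0520).

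Srd5a1 (ENSMUSG00000021594, chromosome 13, 69573449 to 69611442) encodes the reductase that feeds this step. Its level hardly varied, with hippocampus group means of 6.26 to 8.20 CPM against 7.53 to 8.80 in the BNST. No comparison of regions passed the test. The nearest were Dlx males, at -0.31 in knockouts (adjusted p = 0.0502) and -0.31 in wild types (adjusted p = 0.0576). In knockouts these passed without BNST library 1 (-0.36), BNST library 3 (-0.36) or hippocampus library 2 (-0.34), and in wild types without hippocampus library 4 (-0.37) or 5 (-0.36). Srd5a1 overlaps Nsun2 on the opposite strand, a gene with a median of 1409 counts, and strand use in counting is not stated. Nsun2 was higher in the hippocampus by 0.08 to 0.44 (called in 3 of 8). How reads were shared between Srd5a1 and Nsun2 was not tested. Srd5a1 went with summed oligodendrocyte markers over 46 hippocampus libraries (r = 0.63, rho = 0.64) and over 48 BNST libraries (r = 0.51, rho = 0.56).

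Hsd11b1 (ENSMUSG00000016194, chromosome 1, 193221634 to 193264075) encodes the enzyme that regenerates corticosterone, and its levels divided the regions without overlap. Among knockouts it had 21.7, 26.3 and 32.7 CPM (lowest, median and highest of 23 libraries) in the hippocampus, against 1.67, 4.84 and 17.9 CPM in 24 BNST libraries. Among wild types it had 18.6, 25.3 and 40.7 CPM in 24 hippocampus libraries, against 1.21, 5.43 and 8.73 CPM in 24 BNST libraries. Every hippocampus library of the series lay above every BNST library. The share of all genes divided in this way was not counted. The log2 differences ran from 1.84 (SE 0.38, adjusted p = 0.000542, Dlx knockout females) to 2.56 (SE 0.24, adjusted p = 1.82e-09, Nex knockout females), that is 3.59-fold to 5.91-fold higher.

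The BNST library with 17.9 CPM of Hsd11b1, replicate 7 of the Dlx knockout females, had the lowest summed striatal markers of its group (77.3 CPM against 279 to 1360) and the highest summed thalamic markers (1279 against 95.9 to 481.9). Over 48 BNST libraries, after subtraction of group means, Hsd11b1 ran against summed striatal markers (r = -0.76, rho = -0.77, -0.74 without the 2 farthest) and with thalamic ones (r = 0.78, rho = 0.80, 0.77 without the 2 farthest). The part of dissection in the BNST levels was not tested. Genes most like Hsd11b1 over 94 libraries were Aldh1a1 (r = 0.82), Pla2g7 (0.81) and Zmat4 (0.81). Lamb3, which overlaps Hsd11b1 on the opposite strand at a median of 79 counts, was lower in the hippocampus (-0.99 to -0.28, called in 3 of 8). How reads were shared between Hsd11b1 and Lamb3 was not tested.

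Cyp7b1 (ENSMUSG00000039519, chromosome 3, 18071950 to 18243338), the oxysterol hydroxylase that also acts on dehydroepiandrosterone, was 2.27-fold to 3.33-fold higher in the hippocampus. Knockouts had 17.2, 23.2 and 57.9 CPM (lowest, median and highest) in 23 hippocampus libraries, against 7.30, 9.03 and 13.6 CPM in 24 BNST libraries. Wild types had 11, 21.5 and 30.2 CPM in 24 hippocampus libraries, against 6.28, 8.30 and 13.6 CPM in 24 BNST libraries. The 2 regions did not overlap within any of the 8 line, sex and genotype pairs, and the share of all genes without overlap was not counted. All 8 passed the test, beside 30% to 54.3% of all genes called. Log2 differences ran from 1.18 (SE 0.26, adjusted p = 0.00102, Dlx wild-type females) to 1.73 (SE 0.26, adjusted p = 1.52e-05, Dlx knockout females). Without replicate 8, which alone had 57.9 CPM, the last value was 1.31. Over 46 hippocampus libraries Cyp7b1 went with summed dentate gyrus markers (r = 0.72, rho = 0.66, r = 0.61 without the 2 farthest), and the genes most like it over 94 libraries were Kctd4 (0.76), Lgi1 (0.72) and Nek6 (0.70).

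Cyp11a1 (ENSMUSG00000032323, chromosome 9, 58006411 to 58027023) was higher in the hippocampus in all 8 comparisons, by 0.98 to 1.91 on the log2 scale, and passed the test in each. Group means were 3.78 to 6.34 CPM in the hippocampus against 1.55 to 2.21 in the BNST. The regions overlapped in Dlx knockout males, Dlx knockout females and Dlx wild-type females. In the last of these the difference of 1.10 (adjusted p = 0.0260) did not pass without BNST replicate 1 (0.97), BNST replicate 9 (0.96), BNST replicate 11 (1.0) or hippocampus replicate 3 (0.98). Its annotated span overlaps the lincRNA gene Gm17322 on the same strand, which had a median of 88 counts, was also higher in the hippocampus (0.88 to 1.40, called in 7 of 8) and was the gene most like Cyp11a1 over 94 libraries (r = 0.79). How reads were shared between Cyp11a1 and Gm17322 was not tested.

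Cyp19a1 (ENSMUSG00000032274, chromosome 9, 54165937 to 54268110) was the reverse case. The 47 hippocampus libraries held 130 counts in all, against 726 in the 48 BNST libraries. Group means were 0.0562 to 0.213 CPM in the hippocampus against 0.271 to 1.51 in the BNST. The filter on low counts kept Cyp19a1 only in fits where BNST counts were high enough, so the regions are compared in fits with no filter, which hold the gene in all 8 comparisons.

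In those fits the hippocampus value was the lower in all 8, and 6 passed edgeR's quasi-likelihood test. They were Nex knockout females (log2 difference -2.17, SE 0.65, adjusted p = 0.0107, beside 26.2% of all genes called), Dlx knockout males (-1.85, SE 0.65, adjusted p = 0.0291, 28.6%), Dlx knockout females (-2.95, SE 0.60, adjusted p = 0.000661, 17.4%), Nex wild-type males (-3.59, SE 1.08, adjusted p = 0.0172, 18%), Dlx wild-type males (-2.94, SE 0.62, adjusted p = 0.000372, 24.2%) and Dlx wild-type females (-2.53, SE 0.64, adjusted p = 0.00633, 14.1%). Nex knockout males (-0.54, adjusted p = 0.795, 17.9%) and Nex wild-type females (-1.34, adjusted p = 0.155, 27.1%) did not pass. The regions failed to overlap only in Dlx knockout females. With so few hippocampus counts the fold changes depend on the prior count of the fit.

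In Dlx knockout males the call was lost without BNST library 1 (-1.29) or 2 (-1.75), or hippocampus library 1 (-1.70) or 4 (-1.74). It was also lost in Nex wild-type males without BNST library 2 (-2.47) and in Nex knockout females without BNST library 6 (-1.69). Neither of the other 2 comparisons passed on leaving out a library. The value in Nex knockout males became -1.08 without hippocampus library 1, -0.20 without hippocampus library 5 and -0.19 without BNST library 6, and that in Nex wild-type females became -0.38 without BNST library 6.

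In the BNST, Cyp19a1 was spread widely within groups, with a median coefficient of variation of 84.6%. Dlx males had 0, 3, 8, 20, 21 and 40 counts in knockouts, against 4, 20, 32, 46, 51 and 55 in wild types. Dlx females had 6, 14, 17, 20, 24 and 28 counts in knockouts, against 1, 6, 6, 9, 11 and 24 in wild types. The genotypes overlapped in each sex, with log2 differences of -1.22 in males (unadjusted p = 0.0526, adjusted p = 0.875) and 0.96 in females. The difference between them, -2.18 (SE 0.89, unadjusted p = 0.0212, adjusted p = 0.537), did not pass. The Nex line had 0, 1, 5, 12, 14 and 14 counts in knockout males against 0, 0, 1, 8, 32 and 64 in wild-type males, and 6, 6, 9, 9, 13 and 28 in knockout females against 1, 2, 2, 4, 7 and 22 in wild-type females (-1.32 and 0.90, interaction -2.23, unadjusted p = 0.0996).

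The wild-type comparison of the sexes in the Dlx BNST gave 1.92 for Cyp19a1 (SE 0.63, male over female, unadjusted p = 0.00556, adjusted p = 0.296). It was 1.48 in the Nex line, where it did not pass either. Beside the Dlx value, the 8 striatal markers were all above 0 (median 0.74) and so were the 8 thalamic ones (median 1.05), with none called, and their part in it was not tested. Genes most like Cyp19a1 over 94 libraries were Sytl4 (r = 0.75), Otp (0.74) and Nrp2 (0.70).

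Star (ENSMUSG00000031574, chromosome 8, 25806555 to 25815982), which carries cholesterol to the inner mitochondrial membrane, had the narrowest range of group means of the 9, relative to its level, at of 9.91 to 11.9 CPM in the hippocampus against 10.7 to 12.2 in the BNST. It passed the test between regions only in Dlx knockout males (-0.23, adjusted p = 0.0474), and that call was lost under 4 other settings and on leaving out any of 8 of the 12 libraries (-0.24 to -0.18), namely BNST libraries 1, 2, 4 and 5 and hippocampus libraries 1, 2, 3 and 5.

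Tspo (ENSMUSG00000041736, chromosome 15, 83563592 to 83574203), the outer mitochondrial membrane translocator protein used as a marker of microglial activation, also differed between regions only in Dlx knockout males (-0.54, adjusted p = 0.0241), at 3.61 ± 0.49 CPM in the hippocampus and 5.24 ± 1.79 in the BNST (SD, n = 6 each). That call was lost without BNST library 5 (-0.34), hippocampus library 3 (-0.50) or hippocampus library 6 (-0.50). In Dlx knockout females the difference was 0.73 with all libraries and -0.01 without hippocampus replicate 8, and it passed without hippocampus replicate 7 (0.88, adjusted p = 0.0467). Replicate 8 had 20.3 CPM of Tspo against at most 5.13 in its group, together with summed microglial markers of 1078 CPM against 379.4 to 537.6 and meningeal markers of 943.9 against 136.3 to 339.8. Over hippocampus libraries without replicate 8, Tspo and microglial markers had r = 0.50 (rho = 0.42), and over BNST libraries r = 0.51 (rho = 0.40). In the Nex hippocampus alone the r of 0.36 rested on the 2 farthest libraries, without which it was -0.11. Tspo overlaps Mcat on the opposite strand, a gene with a median of 407 counts. Mcat was higher in the hippocampus by 0.03 to 0.52 (called in 2 of 8), and how reads were shared between Tspo and Mcat was not tested.

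**Figure D3:**
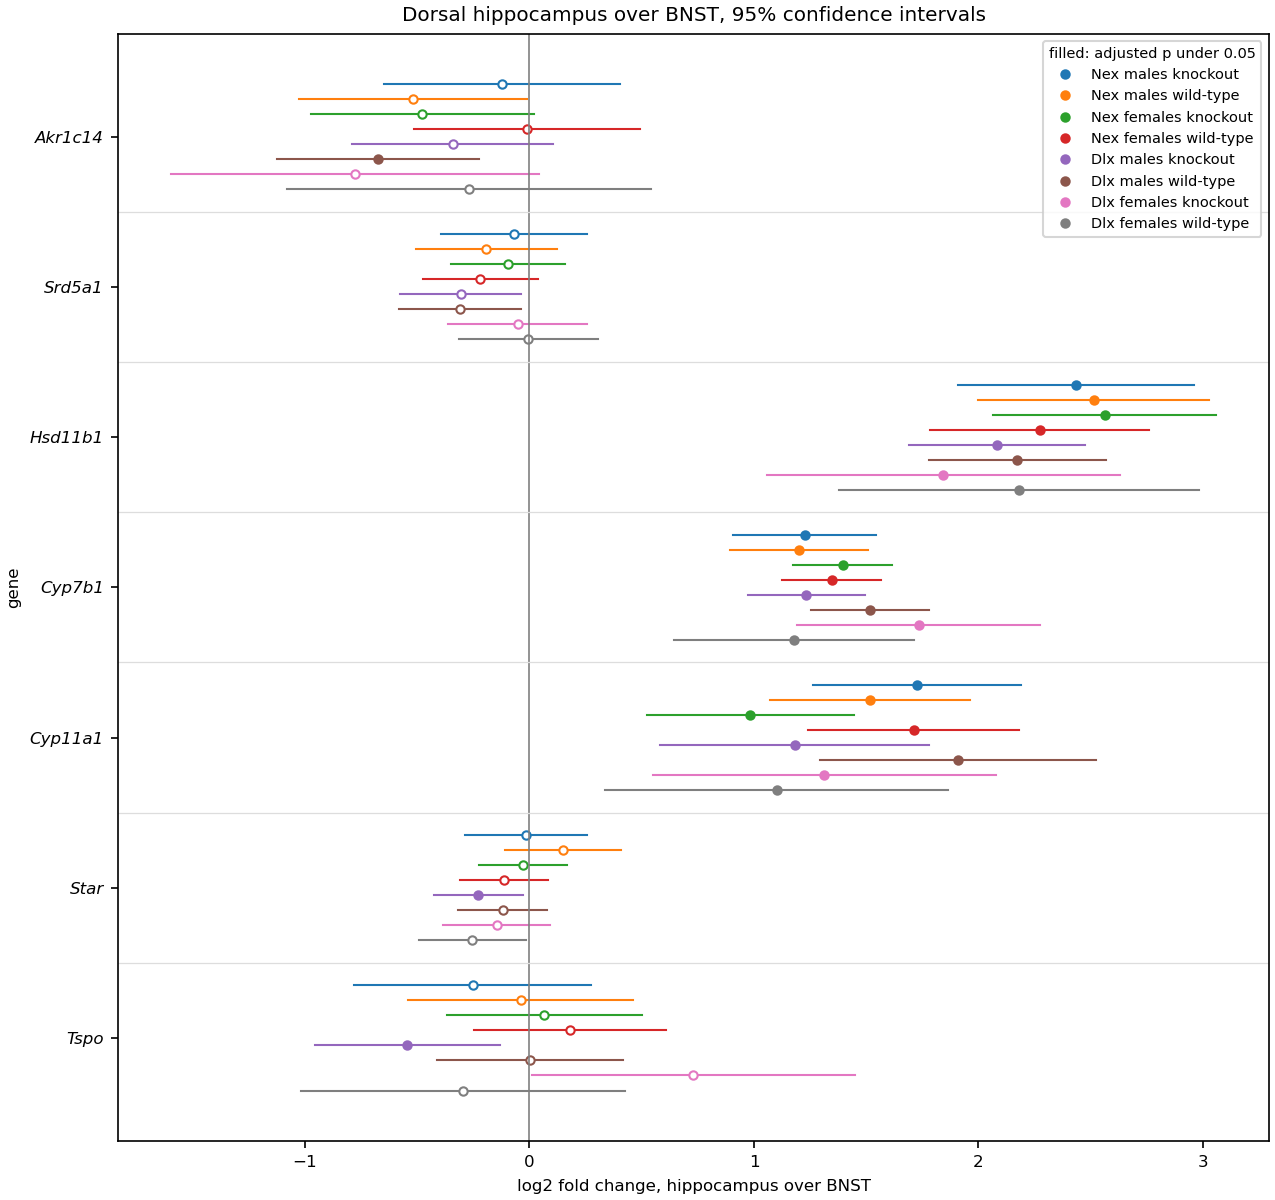
Log2 fold change of hippocampus over BNST (horizontal axis) for 7 of the genes in the 8 combinations of line, sex and genotype, with 95% confidence intervals. Filled points passed the test at an adjusted p under 0.05. Hsd11b1, Cyp7b1 and Cyp11a1 lie right of 0 in all 8, and Akr1c18 and Cyp19a1 are not plotted.

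Of the 7 members other than Akr1c18 and Cyp19a1, those called between regions numbered 3 in Nex knockout males (36.1% of all genes called), 3 in Nex knockout females (51%), 5 in Dlx knockout males (54.3%) and 3 in Dlx knockout females (36.3%). In wild types they were 3 in Nex males (35.7%), 3 in Nex females (52.8%), 4 in Dlx males (46.7%) and 3 in Dlx females (30%). Hsd11b1, Cyp7b1 and Cyp11a1 were among them each time, and beside the shares of all genes these counts are a description. Akr1c18 is left out of the region by genotype interaction, because its wild-type counts in the 2 regions chose it. Cyp19a1 is left out too, because the filter kept it, in 3 of the 4 fits, only through its BNST counts. None of the other 7 members passed that test in the 4 fits (beside 0% of all genes in Nex males, 0.00529% in Nex females, 0.0107% in Dlx males and 0.0054% in Dlx females). The smallest p were those of Cyp11a1 in Nex females (-0.73, unadjusted p = 0.0312) and Tspo in Dlx females (1.03, unadjusted p = 0.0481, and 0.29 without replicate 8).

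Between knockouts and wild types no member passed the test. In the 8 comparisons of knockouts with wild types, 0 of 64 member tests passed edgeR's quasi-likelihood test, beside 0.0106% of all genes in either sex of the Nex hippocampus, 0.00539% in either sex of the Dlx BNST and 0% in the rest, and 4 had an unadjusted p under 0.05. Of all genes, between 260 of 18709 (Nex BNST females) and 1945 of 18293 (Dlx hippocampus females) were under 0.05. Beside these shares the 4 are a description. DESeq2 also called none. The 4 member tests under 0.05 were Akr1c18 in Dlx hippocampus males, Hsd11b1 and Tspo in Dlx hippocampus females and Tspo in Dlx BNST males.

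Hsd11b1 in the Dlx hippocampus of females had 21.7, 23.9 and 32.7 CPM in knockouts (lowest, median and highest), against 18.6, 22.1 and 25.3 CPM in wild types, a log2 difference of 0.26 (SE 0.12, unadjusted p = 0.0365, adjusted p = 0.463). Without replicate 8 it was 0.30 in the same edgeR test (unadjusted p = 0.0118, adjusted p = 0.906). The groups overlapped. Tspo there was 0.76 higher in knockouts (unadjusted p = 0.0397, adjusted p = 0.466) and 0.04 higher without replicate 8. Tspo in the BNST of Dlx males had 3.49, 4.98 and 8.62 CPM in knockouts, against 3.51, 3.80 and 4.40 CPM in wild types (0.45, unadjusted p = 0.0283, adjusted p = 0.875). The genotype differences of Star stayed between -0.08 and 0.18 and those of Srd5a1 between -0.04 (-0.02 without replicate 8) and 0.19 in all 8 comparisons.

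**Figure D4:**
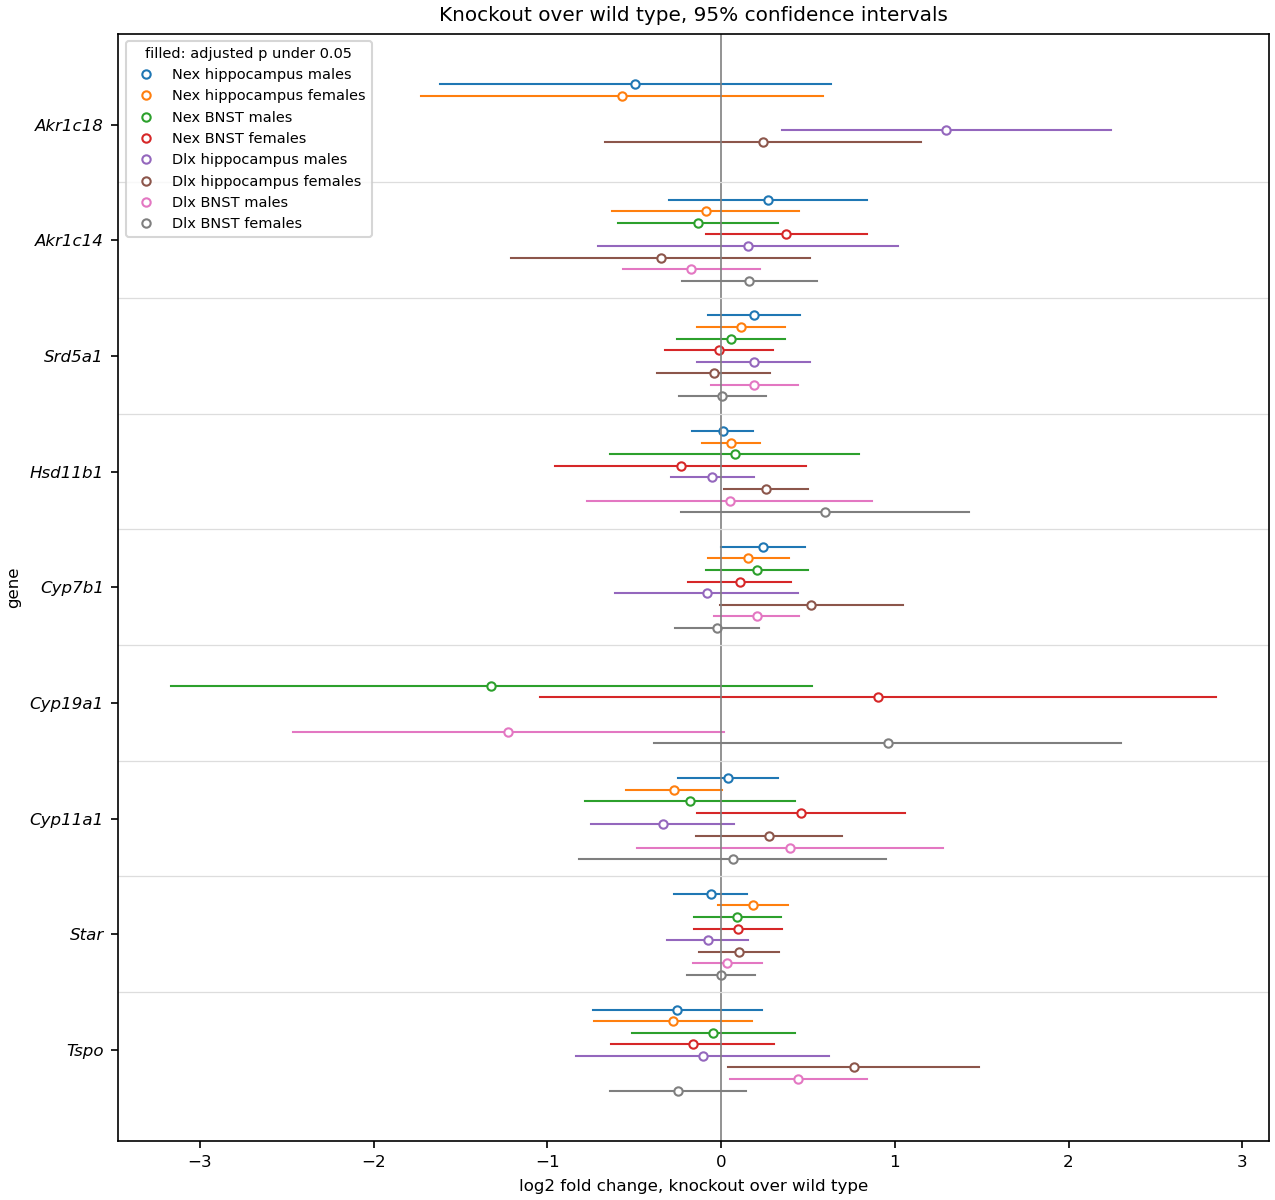
Log2 fold change of knockout over wild type (horizontal axis) for each gene in the 8 combinations of line, region and sex, with 95% confidence intervals, and filled points for an adjusted p under 0.05. No point is filled. The intervals of Akr1c18 and Cyp19a1, plotted in 4 comparisons each, are wider than those of the other 7 genes.

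Between the sexes, none of 64 member tests in 8 comparisons passed edgeR's test, and 10 had an unadjusted p under 0.05. Of all genes, between 774 of 18709 (Nex BNST wild types) and 4646 of 18547 (Dlx BNST knockouts) were under 0.05. Beside these shares the 10 are a description. DESeq2 called 2, Hsd11b1 (0.47) and Cyp11a1 (0.75) in the Dlx hippocampus of wild types, beside 2.47% of all genes called by DESeq2 there. Of all genes, edgeR's test called 0.261% in knockouts and 0.117% in wild types of the Nex hippocampus, 0.142% and 0.23% in the Dlx hippocampus, 0.0535% in either genotype of the Nex BNST, and 5.74% and 0.0701% in the Dlx BNST. The nearest was Hsd11b1 in the Dlx hippocampus of wild types, with 25.5, 27.2, 29.5, 30.3, 30.4 and 40.7 CPM in males, against 18.6, 20.2, 21.7, 22.5, 24.5 and 25.3 CPM in females. No male library overlapped the females, and the log2 difference was 0.47 (SE 0.12, unadjusted p = 0.000481, adjusted p = 0.0710). The share of all genes without overlap between these groups was not counted. Cyp11a1 in the same comparison was 6.34 ± 1.54 CPM in males and 3.78 ± 1.06 in females (SD, n = 6 each), a difference of 0.75 (SE 0.20, unadjusted p = 0.00111, adjusted p = 0.0917). Both passed the same edgeR test without female replicate 3 (0.50, adjusted p = 0.0434, and 0.86, adjusted p = 0.0387). There 299 genes were called in all, against 42 of 18293 with every library. Replicate 3 had the highest summed dentate gyrus markers of the females (1272 CPM) and the lowest summed CA1 markers (197.8 CPM). The part of these markers in the 2 calls was not tested.

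Markers are given for the same comparison of the wild-type sexes of the Dlx hippocampus. Summed dentate gyrus markers were 990.9 to 1356 CPM in males against 291.9 to 1272 in females. All 8 dentate gyrus markers were above 0 in males over females (median log2 0.87), all 8 thalamic markers too (0.89), while all 7 CA1 markers (median -0.83) and all 8 oligodendrocyte markers (median -0.82) were below 0, with none called. Cyp11a1 went with summed dentate gyrus markers over 46 hippocampus libraries (r = 0.65, rho = 0.67, 0.57 without the 2 farthest). Their part in the difference between the sexes was not tested. Akr1c18 ran the other way there, at -1.19 (SE 0.46, unadjusted p = 0.0161, adjusted p = 0.258), and Srd5a1 at -0.38 (unadjusted p = 0.0242, adjusted p = 0.310).

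In the other comparisons of hippocampus sexes Hsd11b1 had the same sign, at 0.24 in Nex wild types (unadjusted p = 0.00771, adjusted p = 0.477), 0.19 in Nex knockouts (unadjusted p = 0.0363, adjusted p = 0.370) and 0.17 in Dlx knockouts. In the Nex line it had 23.9, 27.0 and 32.2 CPM in wild-type males (lowest, median and highest), against 21.8, 23.3 and 26.0 CPM in wild-type females. Tspo in the Dlx hippocampus of knockouts was -0.98 in males over females (unadjusted p = 0.0102, adjusted p = 0.153) and -0.25 without replicate 8.

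Averaged over both lines and genotypes, a comparison chosen after seeing the data, Hsd11b1 was higher in the hippocampus of males than of females by 0.27 on the log2 scale (SE 0.05, adjusted p = 0.000445) and Cyp11a1 by 0.30 (SE 0.09, adjusted p = 0.0198) in edgeR's quasi-likelihood test, 2 of the 8 genes tested (Cyp19a1 was below the filter on low counts) beside 9.19% of all genes called. Without replicate 8 the values were 0.26 (adjusted p = 0.000276) and 0.32 (adjusted p = 0.00687), beside 16.2% of all genes. Sex and numbered set cannot be told apart here. Tspo (-0.41, adjusted p = 0.0873) and Srd5a1 (-0.15, adjusted p = 0.199) did not pass, and Tspo was -0.23 without replicate 8 (adjusted p = 0.136). In the same comparison, with all libraries, 8 of 10 endothelial and mural markers, 3 of 8 oligodendrocyte markers, 4 of 10 meningeal markers and 2 of 10 microglial markers were lower in males. So were 2 of 8 striatal markers and 1 of 8 astrocyte markers, and 3 of 8 dentate gyrus markers were higher (median 0.36). Without replicate 8, 8 endothelial and mural, 5 oligodendrocyte, 5 meningeal and 4 microglial markers, 2 of 11 choroid plexus markers, 2 of 8 striatal markers and 1 of 8 astrocyte markers were lower in males, and 3 dentate gyrus markers were higher (median 0.35). Their part in the result was not tested.

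In the BNST no member was called in the averaged comparison of the sexes (7.3% of all genes called), where 7 of 8 striatal markers were higher in males (median 0.74). Averaged over the sexes, no member was called between genotypes, beside 0.0155% of all genes in the Nex hippocampus, 0.00516% in the Dlx hippocampus, 0% in the Nex BNST and 0.00515% in the Dlx BNST. The nearest was Akr1c18 in the Dlx hippocampus, at 0.77 (unadjusted p = 0.0390, adjusted p = 0.618). Without replicate 8 it was 0.66, and 0.0207% and 0.0104% of all genes were called in the Nex and the Dlx hippocampus.

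**Figure D5:**
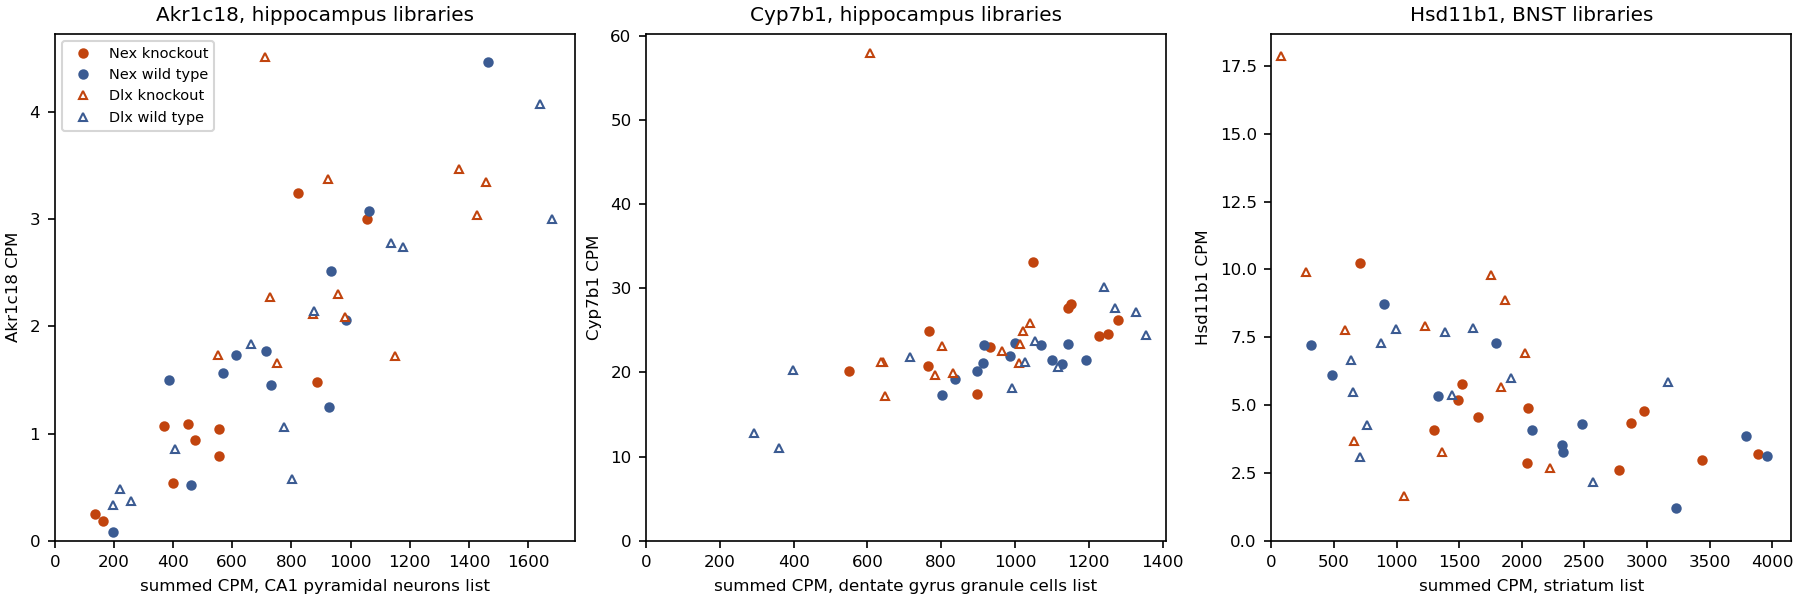
Level of a gene (CPM, vertical axes) against the summed CPM of a marker list (horizontal axes), each point a library, filled circles for the Nex line and open triangles for the Dlx line. Akr1c18 is set against CA1 pyramidal markers and Cyp7b1 against dentate gyrus markers in the hippocampus, and Hsd11b1 against striatal markers in the BNST. On the log scale, after subtraction of group means, Akr1c18 went with CA1 markers (r = 0.89 over 46 libraries, without replicate 8) and Hsd11b1 ran against striatal markers (r = -0.76).

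Wild types of the Nex line and the Dlx line did not differ past the test in any member (0 of 32 tests, beside 0% of all genes in either sex of the hippocampus, 0.177% in BNST males and 1.18% in BNST females), with 3 unadjusted p under 0.05. Of all genes, between 1285 of 18289 (hippocampus females) and 2790 of 18685 (BNST females) were under 0.05. Beside these shares the 3 are a description. Akr1c18 in hippocampus males was 2.40 ± 1.23 CPM in the Nex line and 1.02 ± 0.90 in the Dlx line (SD, n = 6 each, log2 difference 1.22, unadjusted p = 0.0183, adjusted p = 0.450). All 7 CA1 markers were above 0 there (median 0.62, none called), with summed levels of 384.6 to 1463 CPM in the Nex line against 221.3 to 1138 in the Dlx line. Cyp11a1 had opposite signs by sex, at -0.32 in hippocampus males (unadjusted p = 0.0412) and 0.45 in hippocampus females (unadjusted p = 0.0303). Dentate gyrus markers had a median of -0.25 in males (1 of 8 above 0) and of 0.62 in females (8 of 8 above 0), with none called. Their summed level in males was 800.8 to 1128 CPM in the Nex line against 990.9 to 1356 in the Dlx line, and in females 837.3 to 1192 CPM in the Nex line against 291.9 to 1272 in the Dlx line. The part of either marker list was not tested. None of the 95 interaction tests of members passed (region by genotype, sex by genotype and line by genotype, the first without Akr1c18), beside 0% of all genes in all 4 sex by genotype terms and at most 0.00538% and 0.00535% in the line by genotype terms of BNST males and females. The 95 include 3 region by genotype terms of Cyp19a1, which are not read as results. Of the 95, 7 had an unadjusted p under 0.05, beside 214 of 18709 genes (sex by genotype, Nex BNST) to 2332 of 18757 (region by genotype, Dlx males). DESeq2 called no member between lines or in an interaction either. The 7 include the sex by genotype terms of Tspo in the Dlx BNST (0.69, unadjusted p = 0.0165, adjusted p = 0.537) and of Cyp11a1 in the Dlx hippocampus (-0.61, unadjusted p = 0.0430, adjusted p = 0.628).

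Other genes of steroid synthesis and metabolism were counted from a list of 52, of which 51 were in the table. Of these, 20 had too few counts for any fit, among them the genes of the enzymes that make androgens and corticosteroids. Cyp17a1 had 111 counts in the whole series, Cyp21a1 33, Cyp11b1 171, Cyp11b2 27, and Hsd3b1 44. Hsd11b2, whose enzyme inactivates corticosterone, had 375 counts in 81 libraries and at most 14 in any, while Hsd11b1 had at least 27 counts in every library.

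Of the remaining 31 genes none was called between genotypes, sexes or lines or in an interaction. In knockouts, 3 were higher and 8 lower in the hippocampus of 28 tested in Nex males (beside 36.1% of all genes called), 4 and 13 of 28 in Nex females (51%), 3 and 16 of 30 in Dlx males (54.3%), and 1 and 5 of 30 in Dlx females (36.3%). In wild types the counts were 3 and 11 of 28 in Nex males (35.7%), 5 and 14 of 28 in Nex females (52.8%), 2 and 13 of 30 in Dlx males (46.7%), and 2 and 6 of 30 in Dlx females (30%). Read against those shares, the counts are no result about the list. Cyp27a1, the sterol 27-hydroxylase, was lower in the hippocampus in all 8 (log2 differences -2.34 to -1.20), and Cyp39a1, another oxysterol hydroxylase, in 7 (-1.93 to -0.75). Sult2b1, a sterol sulfotransferase, was higher in all 8 (0.52 to 1.11), as was the sterol carrier gene Stard5 in 7 (0.43 to 0.83).

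Among the 17-beta-hydroxysteroid dehydrogenases, Hsd17b4 was lower in the hippocampus in all 8 (-0.54 to -0.24) and Hsd17b11 in 7 (-0.81 to -0.17), while Hsd17b7, which also acts in cholesterol synthesis, was higher in 5 (0.12 to 0.72). Cyb5a, the cytochrome that assists steroid hydroxylases, was lower in 7 (-0.67 to -0.19), and Papss2, which makes the sulfate donor, in 6 (-0.75 to -0.39). H6pd, which supplies the cofactor of the enzyme encoded by Hsd11b1, was called in no comparison of regions (-0.29 to 0.18), and neither was the brain cholesterol hydroxylase gene Cyp46a1 (-0.30 to 0.30). Summed oligodendrocyte markers were 2322 to 8606 CPM in the hippocampus against 8687 to 18120 in the BNST, and their part in these differences was not tested.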

How the data were processed

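RNA of 95 libraries was counted per gene. Per the submitters' processing notes, HISAT2 2.0.5, featureCounts 1.5.0-p3 and DESeq2 were used. The values analysed are the raw counts per gene that the authors deposited, with no normalisation. Strand use and genome build are not given in the sources used here. Of 54495 gene identifiers found in GENCODE M21, 98.33% had its GRCm38 coordinates, so positions are given on GRCm38. The deposited FPKM and comparison columns were not used.

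Counts were tested in R 4.3.3 with edgeR 4.0.16 (filterByExpr, TMM scaling, quasi-likelihood test, Benjamini-Hochberg adjustment over all genes, called at an adjusted p under 0.05). In 12 fits of 4 groups, 40 comparisons were made. The fits between genotypes and sexes took the 4 groups of a line and region, those between regions the 4 groups of a line and sex, and those between lines the 4 groups of a region and sex. A standard error is the fitted log2 difference divided by the root of its F statistic. Levels (CPM) are counts scaled by TMM over all 95 libraries from 20595 genes (factors 0.831 to 1.07). CPM per kb divides by exonic length. Members outside a fit were compared on log2(CPM + 0.5) with exact permutation p-values, two-sided. Between regions Akr1c18 was not tested and Cyp19a1 was tested in fits with no filter, chosen after seeing the data. Correlations use that scale after group means were subtracted. The scripts were tested on simulated counts.

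Alternatives were DESeq2 1.42.0, no filter on low counts, scaling by median-of-ratios size factors, a fit of only the pair compared, a block for the replicate number between regions, and leaving out each library. Differences averaged over lines and genotypes, or over sexes, were chosen after seeing the data.

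The members, gene lists and tests were chosen with earlier results of these data known. The text names all 9 members, up to 4 called genes of the wider steroid list per comparison by smallest p (H6pd, Cyp46a1 and genes too low to test were added after their values were seen), and for each member the 3 genes with the highest Pearson r (mean of 1 CPM or more). Totals of 19.6 to 31.2 M counts limit precision for genes at a few counts, and intervals at 0 counts cover counting error only.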

Additional observations from a re-analysis of the deposited data

Results flagged for a closer look

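In groups of 5 or 6 libraries, the highest or lowest library was compared with its nearest neighbour relative to the range of the group, by Dixon's critical value. Of 144 groups of a gene 20 stood out, where chance gives about 1 in 20, and in all 20 it was the highest library.

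In the hippocampus of Dlx knockout females, replicate 8 had 57.9 CPM of Cyp7b1 (next 23.2) and 20.3 CPM of Tspo (next 5.13), and in the BNST of the same group replicate 8 had 14.7 CPM of Star. In the hippocampus of Dlx wild-type males, library 2 had 2.78 CPM of Akr1c18 (next 1.07) and library 4 had 40.7 CPM of Hsd11b1 (next 30.4). Library 2 also had the highest summed CA1 markers of its group, 1138 CPM against 221.3 to 801.3.

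In the hippocampus of Nex wild-type females, library 2 had 8.72 CPM of Tspo and 2.25 CPM of Akr1c14. In Dlx wild-type females replicate 3 had 2.07 CPM of Akr1c14, and in Nex wild-type males library 1 had 14.5 CPM of Star.

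In the BNST of Nex knockout males, library 6 had 10.2 CPM of Hsd11b1 and 3.05 CPM of Cyp11a1. In Dlx knockout males library 5 had 13.6 CPM of Cyp7b1 and 8.62 CPM of Tspo. Cyp7b1 was 10.3 CPM in library 1 of the Dlx wild-type males and 10.3 CPM in replicate 1 of the Dlx wild-type females. Cyp19a1 was 1.24 CPM in library 6 of the Nex knockout females and 0.942 CPM in library 6 of the Nex wild-type females.

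For Akr1c18 the BNST values that stood out were of 3 counts or fewer, at 0.128 CPM in replicate 18 of the Dlx knockout females, 0.131 CPM in library 5 of the Nex knockout females and 0.0828 CPM in library 1 of the Nex wild-type females.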

How the results depend on the processing

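Of 27 called member results, 22 recomputed values lost the call and 0 reversed. Of 259 results with an unadjusted p of 0.05 or more, 356 of 5150 recomputed values changed sign. The 259 include 4 region by genotype terms of Akr1c18 and 3 of Cyp19a1, which are not read as results. The number of members called was within 1.5 times the reported one in 773 of 778 recomputations. It was 3 in place of 5 between regions in Dlx knockout males with the replicate block, and 3 to 6 on leaving out single libraries. The other exception was males against females in the Dlx hippocampus of wild types, with 2 members called under DESeq2 (Hsd11b1 0.47, Cyp11a1 0.75, beside 2.47% of all genes) in place of 0, and 0 to 2 on leaving out single libraries. Tspo between regions in Dlx knockout females became -0.0111 without knockout female Dlx hippocampus replicate 8, the lowest of its leave-one-out values, which reached 0.879 without replicate 7. Between regions, Star in Dlx knockout males lost its call with median-of-ratios size factors (-0.22), no filter (-0.20), only the 2 groups compared (-0.19) and the replicate block (-0.27), and Srd5a1 there gained one under DESeq2 (-0.30). Replicate numbers shared by hippocampus and BNST were not taken to pair the libraries, since 15 of 42 same-numbered pairs had a correlation over 0.1 (median 0.0695, -0.175 to 0.326). Of these pairs 15 correlated best with their own number, where 7 would if all BNST libraries of the group were alike, so a pairing in some groups is possible. With the replicate block, Akr1c14 in Dlx wild-type males (-0.50) and Tspo in Dlx knockout males (-0.47) also lost their calls, and Cyp19a1 in the fits with no filter lost none. The cause was not tested. Cyp19a1 and the BNST counts of Akr1c18 are limited by depth.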

Other observations

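After subtraction of group means, Hsd11b1 and Cyp11a1 had the highest correlation of any pair of members over 94 libraries, all but replicate 8 of the knockout female Dlx hippocampus (r = 0.51), and the next highest, Hsd11b1 and Star, was 0.30. The libraries share one study and its counting, and the values are a description.

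Members too low for a fit gave 20 permutation tests, of which 2 had an unadjusted p under 0.05. Cyp19a1 in the hippocampus had 25 counts in Dlx wild-type males and 8 in Dlx wild-type females (difference of mean log2 of CPM + 0.5 of 0.28, exact two-sided permutation p = 0.0390, unadjusted) and 8 counts in Nex wild-type males (Nex over Dlx -0.31, exact permutation p = 0.0390, unadjusted).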
